A study of Mus musculus with 6 samples.

Results

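The C/EBP transcription factors were examined in the ganglion cell layer of the mouse retina at 6 hrs after optic nerve crush. The genes considered were Cebpa, Cebpb, Cebpd, Cebpg and Cebpz, and their probe sets were chosen by gene symbol alone. Of the 45101 probe sets on the array, 8 carried one of these symbols: 1 for Cebpa, 2 for Cebpb, 2 for Cebpd, 3 for Cebpg and 0 for Cebpz. Cebpz was therefore not analysed here, and the probe set of Cebpzos, a separate gene on the opposite strand of Cebpz, was not counted in its place.

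The animals were male C57BL/6J mice, and no age or genetic change is given for them. In the crush group the optic nerve of one eye was squeezed with fine forceps inside an intact sheath, and the eye was taken 6 hrs later. The labels and the methods place the crush at different distances behind the eye. The control group was the uninjured contralateral eye of the same animals, so the controls share any response of the whole animal to the surgery. About 6000 cells were laser-captured from the ganglion cell layer of each eye, and the RNA was amplified and hybridized to 1 Affymetrix Mu430 v2.0 array per eye, giving 3 control and 3 crush arrays. The captured tissue is therefore a mixture, in which RGCs lie among other neurons, glia and blood vessels.

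C/EBP proteins are basic leucine zipper factors that bind DNA as dimers, with each other or with other zipper proteins such as ATF4 and CHOP (Ddit3). C/EBPβ and C/EBPδ are known as fast-responding genes of the acute phase response, induced by cytokines of the IL-6 and IL-1 families, and in glia they take part in the induction of inflammatory genes. C/EBPα is best known for the differentiation of fat, liver and myeloid cells, while C/EBPγ lacks a strong activation domain and works mainly as a dimer partner. Cebpz shares the name but not the zipper, and its product is a nucleolar protein of ribosome assembly.

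Each value is the brightness of a probe set on a linear scale, in arbitrary units, as deposited after normalization across arrays. For the tests, intensities under 16 were set to 16 and log2 values were fitted with limma over the 33169 probe sets that averaged 40 or more. Each crushed eye was paired with the control eye of the same number. The sample titles number the eyes but do not say that eyes of the same number came from the same animal. A probe set was called at an unadjusted p under 0.05. After Benjamini-Hochberg adjustment no probe set was under 0.05 in this fit (0 of 33169, against 2546 at an unadjusted p under 0.05) or with the methods' t-test (0, against 1671), and the single one that did when limma used a trended, robust prior was not of a C/EBP gene. Median intensity was 131.2 to 153.9 per array. Crush array 2 stood apart on the first principal component, with 1331 probe sets lower than on every other array by over 1 on the log2 scale (4 to 57 on the others), and crush array 3 on the next, with 255 higher by that margin (2 to 27 on the others).

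Of the 8 C/EBP probe sets, 7 were bright enough to be tested and that of Cebpa was not. Cebpd rose after crush on both of its probe sets, Cebpb on the brighter of its pair and Cebpg on 1 of 3. In all, 4 of 7 tested probe sets were called higher and 0 lower, where 5.16% of all tested probe sets were called higher and 2.51% lower (7.68% in either direction). All 4 also met the study's other thresholds, group means more than 1.2-fold and more than 80 units apart, and 2.58% of all tested probe sets met these together with the p threshold for a rise and 0.543% for a fall. The 7 probe sets stand for 3 genes, so those of a gene are not independent of each other. The count of 4 was 2 without pair 2, without pair 3 or without crush array 2. It was 1 with the methods' paired test on linear intensities, a probe set of Cebpg.

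**Figure D1:**
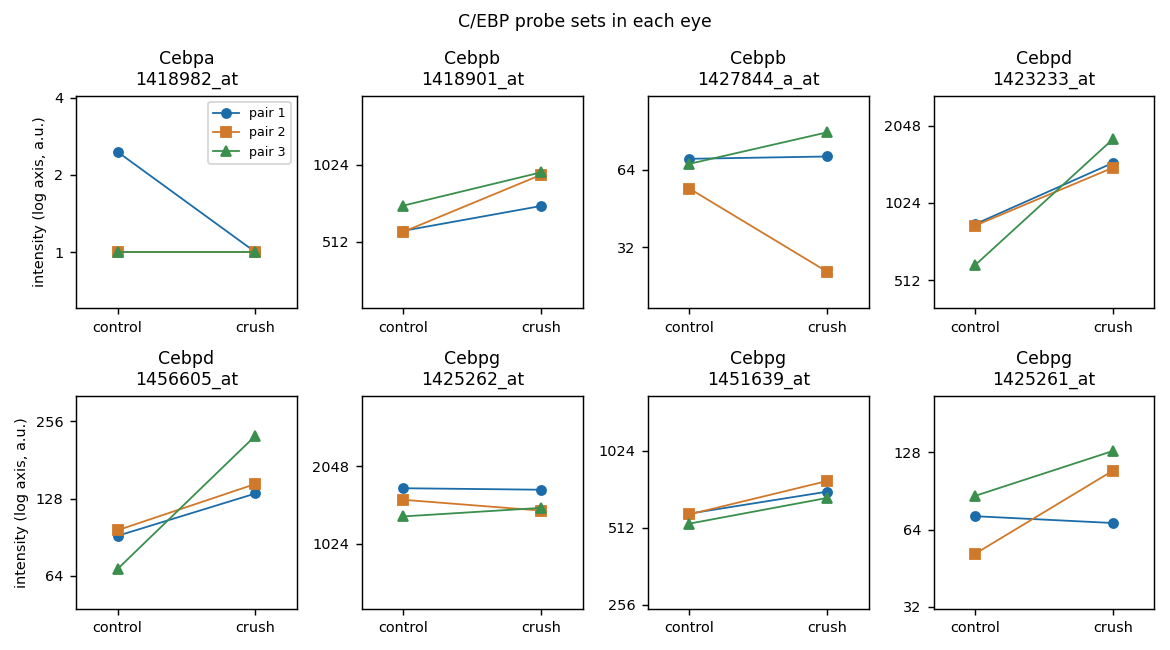
Intensity of each of the 8 C/EBP probe sets in arbitrary units on a log2 axis, for control and crushed eyes at 6 hrs. Each line is 1 pair; both Cebpd probe sets rose in all 3 pairs, and the Cebpa values lie at 1.00 to 2.46.

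Cebpd, whose product C/EBPδ is an activator of acute phase genes, had the largest change in the family. On probe set 1423233_at its intensity was 846 in control eye 1, 835 in control eye 2 and 586 in control eye 3, and 1466 in crush eye 1, 1405 in crush eye 2 and 1816 in crush eye 3. Every crushed eye was above every control eye, which was so for 7.29% of all tested probe sets. Crush eye 3 was the highest, while the control eye of the same number was the lowest. The mean was 756 ± 147 in control and 1563 ± 222 in crushed eyes (SD, n = 3 per group), a 2.07-fold ratio of means. The log2 fold change was 1.06 with a 95% interval of 0.50 to 1.62 (standard error 0.22, unadjusted p = 0.00435 and adjusted p = 0.642 from limma). Over bulk tissue of this kind, a rise of RNA per cell and a larger share of the cells that hold it cannot be told apart.

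The rise of Cebpd differed in size between pairs, with log2 differences of 0.79 in pair 1, 0.75 in pair 2 and 1.63 in pair 3. Without pair 3 the log2 fold change was 0.77 (unadjusted p = 0.0122 from limma), and without crush array 2 it was 1.13. The dimmer probe set, 1456605_at, read 91.6, 96.3 and 68.0 in the control eyes and 134, 146 and 225 in the crushed eyes, in pair order. Eye 3 was again the lowest control and the highest crushed eye, and the groups did not overlap. Its log2 fold change was 0.96 with a 95% interval of 0.27 to 1.65 (unadjusted p = 0.0155, adjusted p = 0.642 from limma). Without pair 3 it was 0.57. This probe set was no longer called with a floor of 64, with no intensity filter or with the methods' paired test. Among the 15103 genes tested, each by its brightest probe set, Cebpd ranked 15 by log2 fold change, Cebpb 351 and Cebpg 7447.

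The genes whose pattern over the 6 arrays was nearest to that of Cebpd were found by the root mean square difference between log2 values. Each probe set was centred on its own mean but not scaled, so the difference also depends on the size of a change. The nearest was Lrguk with a difference of 0.13, followed by Saa2, an acute phase serum amyloid, with 0.17, then C230035I16Rik with 0.19, Gm13238 with 0.22 and Mvd, an enzyme of sterol synthesis, with 0.23. The first 4 were dim, with means of at most 90.6 over the arrays, and Mvd has another probe set with a log2 fold change of -1.11. Saa2 read 30.9, 30.5 and 23.2 in the control eyes and 41.2, 45.7 and 69.3 in the crushed eyes, in pair order. Saa2 and C230035I16Rik only just passed the intensity filter, which was set on the mean over all arrays. All their control values lay under its limit, so both entered the search only through their brighter crushed eyes. Their likeness to Cebpd is therefore partly a result of the filter. Cebpb stood at rank 577 in this order with 0.42, and Cebpg at rank 5451 with 0.57.

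Cebpb encodes C/EBPβ, which was first known as the nuclear factor for IL-6. On probe set 1418901_at its intensity was 565 in control eye 1, 560 in control eye 2 and 709 in control eye 3, and 706 in crush eye 1, 935 in crush eye 2 and 956 in crush eye 3. The groups overlapped only through control eye 3, which lay just above crush eye 1, and the crushed eye was the higher one in all 3 pairs, as for 17.6% of all tested probe sets (14.2% were lower in all 3). The mean was 611 ± 84.4 in control and 866 ± 138 in crushed eyes (SD, n = 3 per group), a ratio of 1.42. The log2 fold change was 0.50 with a 95% interval of 0.11 to 0.89 (unadjusted p = 0.0213, adjusted p = 0.642 from limma). It was not called when any pair was left out, with log2 fold changes of 0.38 to 0.59 and an unadjusted p from limma of 0.0504 without pair 1, 0.065 without pair 2 and 0.0617 without pair 3. It was also not called without crush array 2 (0.44), without crush array 3 (0.42) or with the methods' t-test, paired or unpaired.

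The other Cebpb probe set, 1427844_a_at, was dim and did not follow the first. It read 70.7, 54.1 and 67.5 in the control eyes and 72.1, 25.6 and 89.6 in the crushed eyes, in pair order. The low value was that of crush eye 2, the array that stood apart, and the other pairs were slightly higher after crush. Its log2 fold change was -0.21 with a 95% interval of -0.99 to 0.56 (adjusted p = 0.85 from limma), and 0.34 without crush array 2. With both probe sets averaged, the log2 fold change of Cebpb was 0.14 (adjusted p = 0.838 from limma).

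Promoter sequence from RefSeq (GRCm38.p6) was matched for Cebpa, Cebpb and Cebpg. None was available for Cebpd or Cebpz, so the motif search does not cover Cebpd. Shown here are the 250 bases before the start of Cebpb, at chr2:167688665-167688914 on the plus strand, and of Cebpg, at chr7:35056567-35056816 on the minus strand, since both genes had a probe set that rose and both sequences carry short motifs of known factors. They read 5′ to 3′ in the direction of the gene, and capitals mark each match to a motif searched.
Cebpb: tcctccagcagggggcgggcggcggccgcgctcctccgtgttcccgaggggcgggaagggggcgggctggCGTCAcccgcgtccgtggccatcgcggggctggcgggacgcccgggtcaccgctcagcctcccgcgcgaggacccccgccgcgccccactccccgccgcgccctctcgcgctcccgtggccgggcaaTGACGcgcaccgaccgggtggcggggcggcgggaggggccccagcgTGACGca
Cebpg: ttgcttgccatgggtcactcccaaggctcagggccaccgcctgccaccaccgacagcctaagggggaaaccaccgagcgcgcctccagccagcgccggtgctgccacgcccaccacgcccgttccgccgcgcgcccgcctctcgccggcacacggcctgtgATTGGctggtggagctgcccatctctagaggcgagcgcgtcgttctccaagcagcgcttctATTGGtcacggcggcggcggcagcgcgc

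The motifs were searched on both strands of these 250 bases and of all 32851 promoters of the table. TGACG, the core of the cAMP response element, was found 3 times before Cebpb, beginning 180, 53 and 7 bases before the start, the first on the opposite strand. It was found 0 times before Cebpa and Cebpg, and 17.8% of all promoters hold it. CCAAT was found 2 times before Cebpg, beginning 89 and 28 bases before the start and both on the opposite strand, and 0 times before Cebpa and Cebpb, while 33.8% of all promoters hold it. TTCNNNGAA, the palindrome bound by STAT factors, was not found in these windows (7.02% of all promoters), nor was TTGCNNAA, a C/EBP site (9.56%), or GGNNTTTCC, a site like that of NF-κB (4.93%). None of these matches overlapped. A match is a run of letters and not a measured binding site.

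Cebpg encodes C/EBPγ, the dimer partner of other family members and of ATF4. Its 3 probe sets carry the same accession and did not give the same answer. The brightest, 1425262_at, read 1683, 1517 and 1307 in the control eyes and 1661, 1377 and 1411 in the crushed eyes, in pair order. The groups overlapped fully, and the log2 fold change was -0.02 with a 95% interval of -0.37 to 0.34 (adjusted p = 0.98 from limma).

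Probe set 1451639_at of Cebpg was higher in every crushed eye. It read 581, 577 and 531 in the control eyes and 708, 779 and 669 in the crushed eyes, in pair order, without overlap. The log2 fold change was 0.35 with a 95% interval of 0.01 to 0.69 (unadjusted p = 0.0467, adjusted p = 0.642 from limma). It did not pass without any one of the pairs or without crush array 2, nor with quantile normalization or equal array medians. With the methods' t-test on linear intensities it was called, both paired (unadjusted p = 0.0218) and unpaired (unadjusted p = 0.0124). By the methods' paired test it was the only C/EBP probe set called, with an adjusted p of 0.818. The dimmest, 1425261_at, read 72.2, 51.5 and 86.6 in the control eyes and 67.9, 109 and 130 in the crushed eyes, in pair order. It was lower in pair 1 and higher in the others, with a log2 fold change of 0.52 (95% interval -0.10 to 1.15, adjusted p = 0.647 from limma). Without pair 1 the log2 fold change was 0.83 and the probe set was called, and without pair 2 it was 0.25.

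Cebpa was not detected above the floor of 16 in any eye. Its probe set 1418982_at read 2.46 in control eye 1 and 1.00 in the other 5 eyes. With 1 probe set and values under the floor on all arrays, neither a level nor a change can be given. Cebpa and Cebpg lie close to each other on chromosome 7 in the RefSeq annotation, with 2 annotated genes between them.

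**Figure D2:**
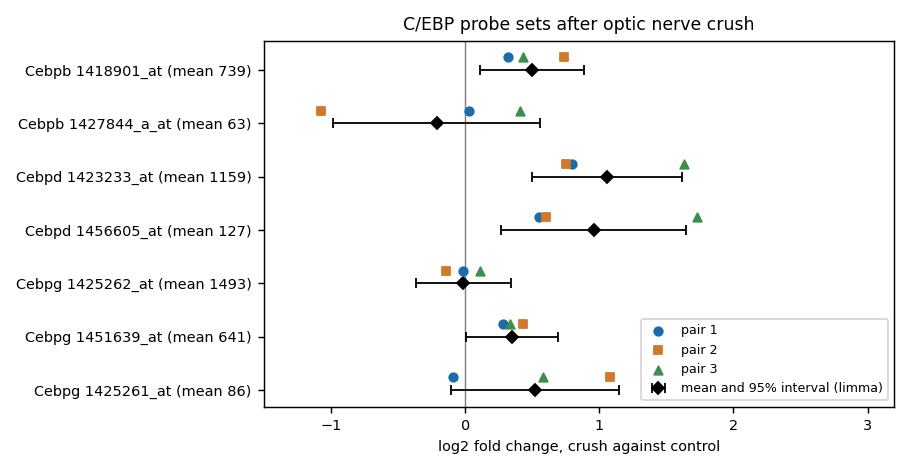
Log2 fold change of the 7 tested C/EBP probe sets, crush against control, with the mean intensity over 6 arrays in parentheses. Diamonds and bars are limma's mean and 95% interval, and the small symbols are the 3 pairs; both Cebpd intervals lie above 0, as do those of 1 Cebpb and 1 Cebpg probe set.

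The members were also set against each other within eyes, by their brightest probe sets. The log2 difference of Cebpd exceeded that of Cebpg by 0.81 in pair 1, 0.89 in pair 2 and 1.52 in pair 3. Cebpd exceeded Cebpb by a mean of 0.56, but in pair 2 they differed by only 0.01. Cebpb exceeded Cebpg in all 3 pairs by a mean of 0.51. In an exact two-sided permutation test over the 3 pairs each of the 3 comparisons had p = 0.25, also after adjustment, which is the smallest value that 3 pairs allow.

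Genes of the same pathways were taken from 7 lists, with each gene given by its brightest tested probe set. Over the 90 listed genes that were tested, 1 was called higher and 2 lower, where 2.76% of all genes tested this way were called higher and 2.27% lower (5.03% in either direction). The median log2 fold change of all 15103 genes was -0.02. With quantile normalization the counts were 2 and 4, and without pair 2 they were 4 and 1. With every probe set counted they were 5 and 7, for which the shares are those of all tested probe sets, 5.16% higher and 2.51% lower.

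Among the cytokines that induce Cebpb and Cebpd, 7 of 12 were tested, and 0 were called in either direction, with a median log2 fold change of -0.09. Lif had a mean of 53.3 ± 4.71 in control and 58.8 ± 14.2 in crushed eyes (SD, n = 3 per group), and Il6 was not tested, with intensities of 3.89 to 26.4. Tnf had log2 differences of -0.49 in pair 1, -2.12 in pair 2 and 1.77 in pair 3, at intensities of 9.97 to 69.6.

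Of the receptors and signal carriers upstream, 15 of 17 were tested and 0 were called by their brightest probe sets, with a median of 0.00. With every probe set counted, 1 was called higher and 3 lower. Il6st, the shared receptor chain of the IL-6 family, differed by 0.08 in pair 1, -2.61 in pair 2 and 0.05 in pair 3. Stat3, the factor that carries this signal to the Cebpd gene, differed by 0.23, -1.60 and 0.55 in the same pairs. On these probe sets of both genes the low value was that of crush array 2. Other tested probe sets had log2 fold changes of 0.03 and 0.01 for Il6st and of 0.13, 0.27 and 1.26 for Stat3. Osmr, the receptor chain for oncostatin M, had a log2 fold change of 0.28 (unadjusted p = 0.108 from limma) and was higher in all 3 pairs, and its other tested probe set had -0.54.

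Among family relatives and dimer partners, 9 of 13 were tested and 0 were called, with a median of -0.01. Ddit3, the stress-induced inhibitor CHOP, was at 2943 ± 69.2 in control and 2700 ± 635 in crushed eyes (SD, n = 3 per group), with the lowest value in crush eye 2. Atf4, the C/EBPγ partner, was at 8972 ± 331 in control and 9522 ± 351 in crushed eyes (SD, n = 3 per group), a log2 fold change of 0.09. Fos and Jun had log2 fold changes of 0.55 and 0.49, neither past the threshold. Of the 19 genes of the integrated stress response, in which ATF4 and C/EBPγ act together, 19 were tested, with 1 called higher, 0 lower and a median of 0.06.

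The gene called higher was Trib3, a pseudokinase that stress induces. It was at 737 ± 167 in control and 1069 ± 126 in crushed eyes (SD, n = 3 per group), a log2 fold change of 0.55 (unadjusted p = 0.0328, adjusted p = 0.642 from limma), and its other tested probe set had -0.29. It was also the one gene called among 11 tested regulators of C/EBP protein, of 15 listed, whose median was -0.06. By brightest probe sets, neither list held a call without pair 2 or without pair 3. With every probe set counted, the regulators had 2 called higher and 1 lower, and the integrated stress response had 1 higher and 1 lower. Gsk3b, a kinase that phosphorylates C/EBPα and C/EBPβ, had a log2 fold change of -0.16 on its brightest probe set and 0.07 to 0.48 on the others. The study listed Gsk3b among the genes that were higher after crush.

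Known targets of C/EBPβ and C/EBPδ were mostly dim, and 13 of 25 were tested. The list left out Socs3, also a target of C/EBP factors, which was called higher and is described below. Of the 13, 0 were called higher and 1 lower, with a median of -0.08. The lower gene was Tnfaip6, a hyaluronan-binding protein of inflammation, at 70.6 ± 19.1 in control and 36.0 ± 22.8 in crushed eyes (SD, n = 3 per group), a log2 fold change of -1.12 (unadjusted p = 0.0112, adjusted p = 0.642 from limma). The crushed eyes of Tnfaip6 averaged under the limit of the intensity filter, so the gene was tested only through its brighter control eyes. Lcn2, the siderophore-binding lipocalin of the acute phase, differed by 0.68 in pair 1, 1.03 in pair 2 and -0.80 in pair 3. Cp, the copper carrier ceruloplasmin, was at 3001 ± 895 in control and 2903 ± 708 in crushed eyes (SD, n = 3 per group). Serpina3n, an acute phase protease inhibitor known from reactive astrocytes, read 1.00 to 4.74 and was not tested.

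Socs3, which is itself a target of STAT3 and of C/EBP factors, read 139, 174 and 171 in the control eyes and 621, 419 and 1115 in the crushed eyes, in pair order. Its lowest crushed eye was eye 2 and its highest eye 3, and the rise was largest in pair 3, as for Cebpd. By the measure of likeness to Cebpd used above, Socs3 stood at rank 9292 with a difference of 0.62, farther away than Cebpg. That measure also depends on the size of a change, which was larger for Socs3 than for Cebpd. The rank therefore does not compare the shape of the 2 patterns alone. The log2 fold change of Socs3 was 2.04 on the probe set given here, 2.07 on another and 0.19 on the remaining one. Of the nucleolar genes that act with Cebpz, 20 of 20 were tested, with 0 called higher, 1 lower and a median of -0.02. The lower gene was Rrp12, with a log2 fold change of -0.51 (unadjusted p = 0.0309, adjusted p = 0.642 from limma), and without pair 2 or pair 3, or with no pairing, it did not pass. With every probe set counted, this nucleolar list had 2 called higher and 1 lower.

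**Figure D3:**
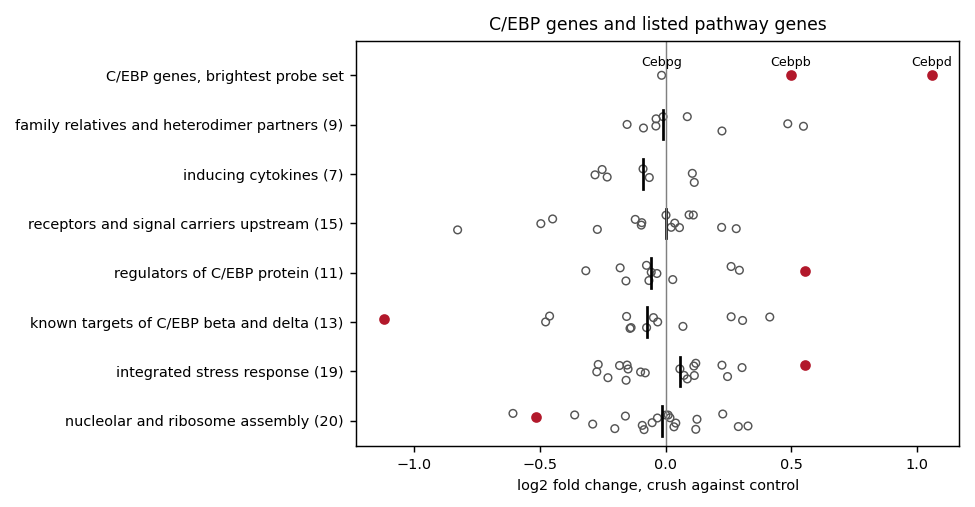
Log2 fold change, crush against control, of the 3 measured C/EBP genes and of the genes of 7 pathway lists, each by its brightest probe set, with the number of genes in parentheses. Filled points had an unadjusted limma p under 0.05, and vertical bars are list medians; the list medians lie between -0.09 and 0.06, while Cebpd is at 1.06.

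Markers of the cell types in and near the captured layer were read from the same fit, each by its brightest tested probe set. Over all genes taken this way, 2.76% were called higher and 2.27% lower. Ganglion cell markers were present, with 12 of 14 tested, 0 called and summed intensities of 62179 to 64068 in controls and 55232 to 69407 after crush. Of 5 markers of the pigment epithelium, 4 were tested and 3 were called higher (Ttr, Rgr and Lrat), with summed intensities of 820 to 1357 in controls and 2259 to 8182 after crush, while Rpe65 read 1.00 to 10.2. Ttr made up most of these sums, with means of 650 in control and 3807 in crushed eyes. The means were 68.7 and 188 for Rgr and 223 and 343 for Lrat, in the same order. Best1 was not called, with a log2 fold change of -0.01. Of the 3 other tested probe sets of Ttr, the lowest was at -0.02 and the others rose. The median log2 difference of the 4 tested markers in pairs 1 to 3 was 0.68, 0.81 and 1.35, and thus largest in the same pair as that of Cebpd. Their part in the rise of Cebpd was not tested.

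Of 5 astrocyte markers 4 were tested, and Gfap and Pdgfra were called higher, with summed intensities of 4953 to 6030 in controls and 6015 to 6894 after crush. Other tested probe sets of Gfap had log2 fold changes of -0.25 and 0.48, and that of Pdgfra had 0.53. S100b was at 0.15 and Aldh1l1 at -0.31, neither called. Of 13 markers of microglia and macrophages 10 were tested, with Ptprc called higher and Tmem119 lower, and summed intensities of 3853 to 5368 in controls and 3971 to 4889 after crush. Neutrophil markers, of which 4 of 9 were tested, had 0 called and sums of 278 to 327 and 247 to 333. Muller cell markers had 0 called higher and 1 lower (Aqp4) of 11, with sums of 52567 to 58789 in controls and 50675 to 51976 after crush. Endothelial markers, with 6 of 7 tested, pericyte markers, with 5 of 5, and amacrine markers, with 9 of 9, had 0 called. Rod markers had 0 called of 7, with medians of -0.19, 0.17 and 0.74 in pairs 1 to 3, and bipolar markers had 0 higher and 1 lower (Cabp5) of 5. Of 3 erythrocyte markers 0 were tested. The part of astrocytes, microglia and rods in the C/EBP changes was not tested.

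**Figure D4:**
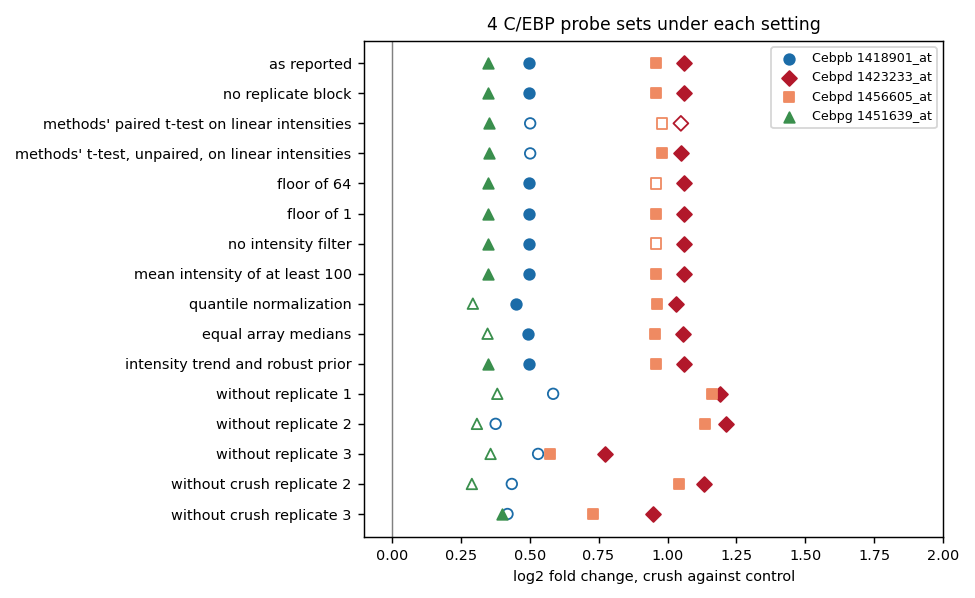
Log2 fold change of the 4 C/EBP probe sets that were called higher, as reported and under 15 other settings. Filled symbols passed an unadjusted p under 0.05 and open symbols did not; all lie above 0, and the brighter Cebpd probe set ranged from 0.77 to 1.21.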

How the data were processed

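Arrays of 3 control and 3 crush eyes were used. The authors calculated signal intensities with the PM/MM model in dChip after invariant-set normalization, and the deposited values are linear intensities of 45101 probe sets, of which 64 control probe sets were left out. Genes were named from the platform annotation, with 34945 probe sets of a single symbol, 932 of several and 9160 of none. After a floor of 16, log2 values of the 33169 probe sets averaging at least 40 were fitted by limma 3.58.1 (R 4.3.3) on group and eye number, with Benjamini-Hochberg adjustment over all of them. The methods use a paired test with contralateral eyes as controls, and residuals of same-numbered eyes correlated at 0.15, 0.13 and 0.30 in pairs 1 to 3. The highest correlation with an eye of another number was -0.044, 0.131 and -0.070, so that in pair 2 it was not below that of the pair itself. For each gene the brightest tested probe set was used. Named genes were all C/EBP probe sets, the called genes of each pathway list (up to 4 each way), Socs3, Ddit3 and the 5 genes nearest to Cebpd. Others were named after their values were seen. The genes and lists were chosen with earlier results of these data known. Calculations were tested on simulated data. Alternatives covered pairing, test, floor, filter, scaling, prior and the arrays used. Array number limits the precision. The p values from limma rest on the spread between these 3 pairs, moderated by the spread shared over all tested probe sets. Only the methods' paired test uses the spread of the 3 pairs of a probe set alone. Promoters came from RefSeq tables.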

Additional observations from a re-analysis of the deposited data

How the results depend on the processing

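The brighter Cebpd probe set kept its direction and its side of the unadjusted p threshold in 15 of 16 alternatives. With the methods' paired test on linear intensities its log2 ratio of means was 1.05 and it did not pass. The 1 C/EBP probe set called by that test was 1451639_at of Cebpg. With no replicate block, that is without the pairing, the log2 fold change of the brighter Cebpd probe set was 1.06. In that fit 4 C/EBP probe sets were called, as with the pairing, while the lower genes of the pathway lists numbered 1. The count of called C/EBP probe sets was 2 to 3 with a pair or a crush array left out. Counts over the pathway lists were 2 higher and 4 lower with quantile normalization, 5 and 7 with every probe set counted, and 1 to 4 higher and 1 to 3 lower without a pair. Direction turned on the dim Cebpb probe set with a floor of 64 (0.15), without pair 2 (0.22) and without crush array 2 (0.34), with a range of -0.57 to 0.34 over the arrays or pairs left out. It turned on the brightest Cebpg probe set without pair 2 (0.046), without crush array 2 (0.03), without crush array 3 (0.02) with a range of -0.080 to 0.046 over the arrays or pairs left out, and when the 3 probe sets were averaged (0.29). Averaging the probe sets of Cebpb gave 0.14 (adjusted p = 0.838 from limma). Fits without a crush array kept all 3 controls and had no pairing. The causes of these shifts were not tested, beyond the arrays left out by construction. Low signal limits Cebpa and most cytokines and target genes.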
